A study of Homo sapiens with 4 samples.

Results

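The regions described here are the peaks of chromosome 19 that differed in m6A-enriched RNA between HEK293 cells with a slow-elongating RNA polymerase II (RNAPII) and control cells labelled wild type (WT). They were chosen from the authors' 4 peak lists by chromosome, leaving out 4 stretches of densely packed peaks, which gave 389 peaks of 4889 in all lists. By list, the slow library was higher (slow-higher) at 191 peaks of pair 1 and 122 of pair 2. The WT library was higher at 39 peaks of pair 1 and 37 of pair 2 (WT-higher). The 4 stretches left out held another 104 and 139 slow-higher and 0 WT-higher peaks.

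HEK293 is a human embryonic kidney line. Each group had 2 libraries of RNA fragments bound by an antibody against N6-methyladenosine (m6A). In the slow group the labelled genotype was an alpha-amanitin mutant of RNAPII, described as a slow-elongating version, and the other group was labelled control and wild type. All cells received doxycycline (1 µg/ml) for 24 h and then, for a further 42 h, doxycycline plus 2.5 µg/ml of α-amanitin, which blocks RNAPII. The labels leave unsaid whether the control line also carried an α-amanitin-resistant RNAPII, whether each line was 1 clone, and whether replicates were grown separately, and their spread may therefore be technical only.

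m6A is placed on adenosines of nascent and mature mRNA by a nuclear methyltransferase complex with METTL3 as its catalytic subunit, largely while RNAPII is transcribing. It is best known from regions near stop codons and from long internal exons, and it takes part in mRNA decay, export and translation. Chromosome 19 is the most gene-dense human chromosome and carries many of the genes for KRAB zinc-finger proteins, a large family of DNA-binding repressors, in several clusters. Of these, the 4.5 Mb that begin at 20 Mb and the 6.6 Mb that begin at 52 Mb (hg19) are set apart below, as the cluster at 20 Mb (cluster 1 in the plots) and the cluster at 52 Mb (cluster 2). Other zinc-finger gene clusters of the chromosome count with the rest. Both clusters are intervals of position, so a peak inside them need not lie in a zinc-finger gene.

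All positions are on chromosome 19 of hg19. No annotation or sequence of that build was used here, so regions are named by position and not by gene. Every peak was called by setting 1 library against the other of its pair, without input RNA, so a peak does not tell a difference in methylation from one in transcript level. The fold is the authors' deposited value, the summit coverage plus 1 over the background of the other library plus 1, after the deeper library was scaled to the shallower. Fragments are given here without that scaling, at the summit for the higher library and as the caller's local background for the other. Duplicate removal left 547402 to 698050 reads in the slow and 1136611 to 1695246 in the WT libraries, a ratio of WT to slow reads of 2.43 in pair 1 and 2.08 in pair 2. Redundant reads were 96% and 94% of the slow and 92% of each WT library. That ratio is called the depth ratio below. Because all members were chosen on this same contrast, direction, fold and fragments are a description with no test, and the smallest two-sided p an exact sign-flip test of 2 pairs allows is 0.5. Ranges given as intervals are 95% Clopper-Pearson limits of a share and hold counting error alone. They count peaks as independent, although many peaks lay in runs, and so are too narrow to serve as a test.

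Chromosome 19 peaks were mostly slow-higher in both pairs. The slow-higher share was 83.0% in pair 1 (191 of 230, interval 77.6% to 87.7%) and 76.7% in pair 2 (122 of 159, interval 69.4% to 83.1%), a mean of 79.9% ± 4.46 (SD, n = 2). Over all peaks of the series the share was 67.3% and 66.2%. On the other chromosomes 1 to 22 and X it was 63.4% (interval 61.4% to 65.3%) and 61.2% (interval 58.8% to 63.5%). Counting each chain of peaks at most 20 kb apart as 1 locus, chromosome 19 held 115 slow-higher and 33 WT-higher loci in pair 1, and 85 and 33 in pair 2. The chromosome was chosen with earlier results of these data in view.

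Fragment counts of the 2 directions cannot be compared directly, because they are unscaled and the WT libraries were deeper by the depth ratio. Slow-higher peaks had as few as 3 summit fragments, with medians of 20 in pair 1 and 14 in pair 2. WT-higher peaks had at least 11 and 10 fragments, with medians of 26 and 25. On the other chromosomes the smallest slow-higher peaks also had 3 fragments, and the smallest WT-higher peaks 9 and 8. The median fold of slow-higher peaks was 5.73 and 6.53, against 6.45 and 6.75 on the other chromosomes. For WT-higher peaks it was 6.53 and 6.52, against 6.89 and 7.06. Folds of at least 10 were seen at 22 of 191 and 19 of 122 slow-higher peaks (11.5% and 15.6%), against 15.5% and 15.6% on the other chromosomes. Among WT-higher peaks they were seen at 4 of 39 and 1 of 37 (10.3% and 2.70%), against 11.4% and 12.2%. Peaks of 400 bp or more numbered 7 in each slow-higher list and 0 in both WT-higher lists. On the other chromosomes they numbered 66 of 1515 and 54 of 1055 slow-higher, and 29 of 876 and 26 of 670 WT-higher peaks.

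Many slow-higher peaks of chromosome 19 lay where the WT library was itself well covered. The WT background was 10 or more fragments at 72 of 191 slow-higher peaks in pair 1 (37.7%, interval 30.8% to 45.0%) and at 28 of 122 in pair 2 (22.95%, interval 15.8% to 31.4%). On the other chromosomes the shares were 20.4% (interval 18.4% to 22.5%) and 11.8% (interval 9.87% to 13.9%). At these covered peaks the slow library had a median of 50 summit fragments against 32.5 WT background fragments in pair 1, and 58 against 30.5 in pair 2. Their deposited folds had a median of 3.54 and 3.38. Without the scaling, the median ratio of slow to WT fragments was 1.54 (range 0.900 to 3.64) in pair 1 and 1.73 (range 1.01 to 4.20) in pair 2. At 3 of the 72 covered peaks in pair 1 and 0 of the 28 in pair 2, the WT fragments equalled or outnumbered the slow fragments. On the other chromosomes this was so at 23 of 309 covered peaks in pair 1 and 5 of 124 in pair 2. Such slow-higher calls rest on the scaling for depth, and so do calls where the unscaled fragments were nearly equal. The scaling uses reads left after removing duplicates by position, and whether it holds equally at highly covered positions was not tested. The 3 peaks of chromosome 19 lay at 2430642 to 2430765 (45 slow against 50 WT), 10225650 to 10225973 (56 against 60) and 49611469 to 49611607 (105 against 108), and 0 of them were found in pair 2. WT-higher peaks with 10 or more slow background fragments were 2 in each pair. Their share of the list was 5.13% (pair 1, interval 0.627% to 17.3%) and 5.41% (pair 2, interval 0.661% to 18.2%). Elsewhere in the genome, on chromosomes 1 to 22 and X, it was lower, at 1.60% and 3.88%, but within those wide intervals. The limit of 10 is unscaled and harder to reach in the shallower slow libraries. Covered peaks of the 2 directions therefore cannot be compared by number.

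**Figure D1:**
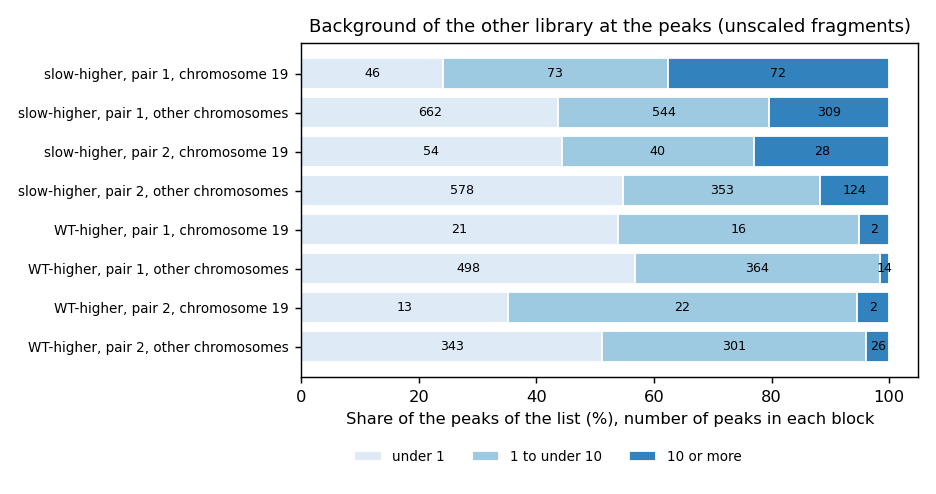
Share of the peaks of each list, in percent, by the unscaled background of the other library (under 1, 1 to under 10, or 10 or more fragments), for chromosome 19 and for the other chromosomes 1 to 22 and X, with the number of peaks in each block. On chromosome 19 the darkest block holds 72 of 191 and 28 of 122 slow-higher peaks, and 2 peaks in each WT-higher list. Because the limits are unscaled and the WT libraries were deeper, blocks of the 2 directions are not directly comparable.

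At the other end, the WT background was under 1 fragment at 46 slow-higher peaks of pair 1 (24.1%) and 54 of pair 2 (44.3%). These peaks were small, with medians of 6 and 7 slow fragments. On the other chromosomes such peaks were 43.7% and 54.8% of the slow-higher lists. The slow background was under 1 fragment at 21 of 39 and 13 of 37 WT-higher peaks, with medians of 17 and 16 WT fragments. At such backgrounds the pseudocount of 1 largely sets the fold.

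**Figure D2:**
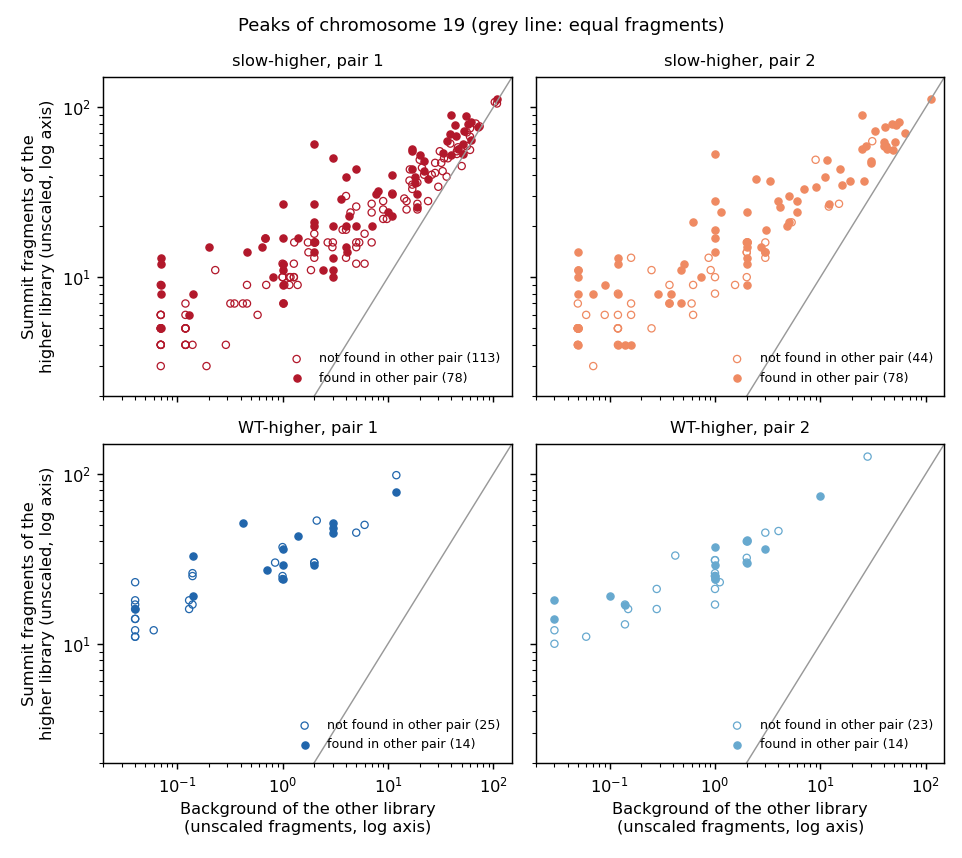
Summit fragments of the higher library (vertical) against the background fragments of the other library (horizontal), unscaled and on log axes, 1 point per chromosome 19 peak, filled where the peak was found in the other pair. Slow-higher peaks reach down to the grey line of equal fragments at high coverage, up to 111 slow against 108 WT fragments in pair 1. In pair 1, 3 of them lie below it. WT-higher peaks had to lie above the line, because the axes are unscaled and the WT libraries were deeper.

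Part of each list was found again in the same-direction list of the other pair, by an overlap of at least 1 bp. Among slow-higher peaks, 78 of 191 in pair 1 (40.8%, interval 33.8% to 48.2%) and 78 of 122 in pair 2 (63.9%, interval 54.7% to 72.4%) recurred, beside 44% and 63.1% over the whole series. Among WT-higher peaks, 14 of 39 (35.9%, interval 21.2% to 52.8%) and 14 of 37 (37.8%, interval 22.5% to 55.2%) recurred, beside 29.9% and 38.5%. These shares lay near those of the whole series. Overlaps with a peak of the opposite direction numbered 0 in every list, a count that was not made over the whole series. Within a pair this was largely fixed in advance, since the same 2 libraries are compared both ways. For overlaps between pairs, a count of 0 was taken to allow for 3 peaks of the list's total, not by the interval used above. It allows up to 1.57% and 2.46% of the slow-higher and 7.69% and 8.11% of the WT-higher peaks of pairs 1 and 2.

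Strongly called slow-higher peaks recurred more often than weakly called ones in both pairs. At a −log10 q of 10 or more, 50 of 80 slow-higher peaks of pair 1 (62.5%) and 45 of 53 of pair 2 (84.9%) recurred, and below it 28 of 111 (25.2%) and 33 of 69 (47.8%). The few WT-higher peaks at or above that value gave no common direction, since pair 1 had 2 of 7 (28.6%) there and 12 of 32 (37.5%) below it, while pair 2 had 3 of 4 (75%) there and 11 of 33 (33.3%) below it. In pair 2, 25 of 28 peaks with 10 or more WT background fragments recurred (89.3%), and 25 of 54 with under 1 (46.3%). In pair 1 the same counts were 32 of 72 (44.4%) and 13 of 46 (28.3%). Absence of a peak from a list means that it missed the caller's limit there, not that the difference was absent.

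Joining overlapping peaks of the same direction gave 77 slow-higher and 14 WT-higher reproducible regions, in 59 and 13 loci. At a −log10 q of at least 5 the WT-higher regions fell to 7, in 7 loci. Over peaks with under 10 background fragments in the other library the slow-higher regions were 46, in 37 loci, and with the 4 stretches kept in they were 172. The summits of the pairs lay within 50 bp of each other in 64 of 77 slow-higher regions and in 14 of 14 WT-higher regions, with median distances of 15 and 10.5 bp. The median fold was 6.65 in pair 1 and 6.91 in pair 2 for slow-higher regions, and 6.79 and 6.84 for WT-higher regions. Folds of at least 10 in both pairs were seen in 10 of 77 slow-higher and 0 of 14 WT-higher regions, and of at least 5 in both pairs in 48 and 10. Across the 77 slow-higher regions log2 fold had a Pearson's r of 0.81 between pairs and Spearman's rho of 0.77. Across the 14 WT-higher regions the values were 0.50 and 0.24. Regions share their libraries and depth and are not independent, and their folds were used in calling them.

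**Figure D3:**
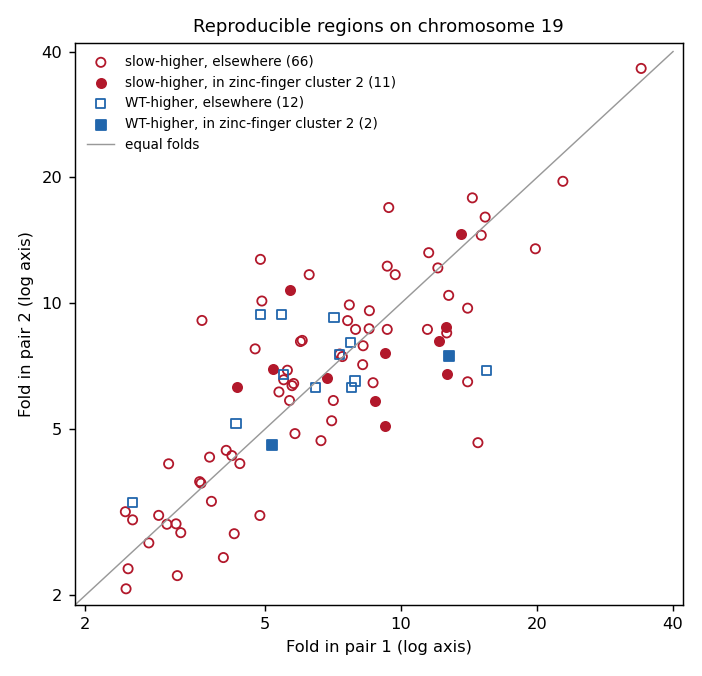
Deposited fold of the 91 reproducible regions in pair 1 (horizontal) and pair 2 (vertical), on log axes, circles for slow-higher and squares for WT-higher, filled where the region lies in the zinc-finger gene cluster at 52 Mb. Slow-higher regions run from about 2-fold to 34.0-fold and 36.4-fold, and WT-higher regions stay at or below 15.5-fold.

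The strongest slow-higher region among the members spanned 901 bp, from 11200805 to 11201705. The slow libraries had 61 and 53 fragments at its summit in pairs 1 and 2, against WT backgrounds of 2 and 1, and the folds were 34.0 and 36.4. The next, from 45819829 to 45820063, had 50 and 28 slow against 3 and 1 WT fragments, 22.8-fold and 19.6-fold. Both slow libraries stood far above both WT libraries in these regions. From 10765527 to 10765764 there were 27 and 24 slow against 2 and 1.15 WT fragments, 15.4-fold and 16.1-fold.

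A pair of neighbouring regions followed, from 2225870 to 2226345 and from 2225452 to 2225663. The former had 39 and 37 slow against 4.03 and 3.35 WT fragments (15.1-fold and 14.5-fold), the latter 43 and 38 against 5 and 2.46 (14.4-fold and 17.9-fold). They opened a run of 11 slow-higher peaks that drew 6 from pair 1 and 5 from pair 2 and ended at 2229706. That run held 5 reproducible regions in 4.26 kb, with folds of 5.32 to 15.1 in pair 1 and 6.91 to 17.9 in pair 2. It was the most compact of the 5 richest runs among the members, which leave out the 4 stretches of densely packed peaks.

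Among the other slow-higher regions of the first 15, slow fragments in each pair were at most those of the region from 10765527 to 10765764. From 15480009 to 15480205 there were 27 and 19 slow against 1 and 1 WT fragments, 19.8-fold and 13.5-fold. From 455673 to 456070 the counts were 21 and 17 against 2 and 1, 12.1-fold in each pair. From 7098782 to 7099285 they were 20 and 13 against 2 and 0.12, 11.5-fold and 13.2-fold. In each of these the slow fragments outnumbered the WT background at least several times over.

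A further 5 regions outside the zinc-finger intervals ranked among the first 15. The region from 16347050 to 16347327 had 17 and 12 slow against 1 and 0.51 WT fragments, 12.8-fold and 10.4-fold. Between 33166208 and 33166372 the counts were 17 and 11 against 0.68 and 0.48, 14.0-fold and 9.73-fold. The region from 30272637 to 30272841 (9.71-fold and 11.7-fold) was the first reproducible region on the far side of the centromere, with 9 and 11 slow fragments and a WT background at the caller's genome-wide minimum. From 10491673 to 10491915 the folds were 9.39 and 16.9, the widest disagreement among these ranks, with 20 and 21 slow against 3 and 0.62 WT fragments. Between 41235192 and 41235367 there were 16 and 12 slow against 2 and 0.12 WT fragments, 9.32-fold and 12.3-fold. The WT background alone differed between pairs at the 10491673 region, while the slow fragments were nearly equal.

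At the low end stood regions covered in all 4 libraries. Of the 77 slow-higher regions, 25 had 10 or more WT background fragments in both pairs, with folds from 2.07 to 7.56. Among the members, the region with the most fragments lay from 49611091 to 49611338, with 111 and 112 slow against 108 and 111 WT fragments. Its folds of 2.46 and 2.07 were just above and just below the depth ratios of 2.43 and 2.08. From 3958971 to 3959222 there were 82 and 82 slow against 61 and 56 WT fragments, 3.18-fold and 2.97-fold. Before scaling, the slow and WT fragments of the first of these regions were nearly equal in both pairs. A peak not found in pair 2, from 3976356 to 3976620, was of the same kind, with 107 slow against 103 WT fragments and a fold of 2.49.

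WT-higher regions were fewer, with a median fold near that of slow-higher regions. The region with the highest lower fold, from 48642640 to 48642787, had 19 and 17 WT fragments against a slow background of 0.14 in each pair, 7.73-fold and 8.07-fold. From 19162595 to 19162865 there were 16 and 14 WT against 0.04 and 0.03 slow fragments, 7.32-fold and 7.53-fold. From 2071269 to 2071490 the counts were 27 and 19 against 0.71 and 0.10, 7.11-fold and 9.25-fold. These were the 3 WT-higher regions with a slow background under 1 fragment in both pairs.

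Of the 14 WT-higher regions, 6 fell into 2 segments, which were picked out after their values had been seen. The segment from 44418272 to 44479719, 61.4 kb long, held 3 WT-higher regions, 3 WT-higher peaks in each pair and 0 slow-higher peaks. Its region from 44474466 to 44474685 had the highest WT-higher fold of the chromosome, 15.5 in pair 1 with 51 WT against 0.42 slow fragments, but 6.92 in pair 2 with 41 against 2. Between 44418272 and 44418569 WT was 7.91-fold and 6.52-fold higher, with 36 and 25 WT fragments, and between 44479470 and 44479719 it was 6.47-fold and 6.28-fold higher, with 29 and 24. In each of them the WT fragments numbered 24 to 51 and the slow background at most 2.

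The segment from 3381794 to 3767467, 386 kb long, held 5 WT-higher peaks in pair 1 and 4 in pair 2, against 1 slow-higher peak in each pair and 0 reproducible slow-higher regions. Between 3381794 and 3382004 the WT excess was 4.88-fold and 9.41-fold, with 45 and 37 WT against 3 and 1 slow fragments. Between 3767263 and 3767467 it was 4.31-fold and 5.15-fold. Between 3534948 and 3535227 it was 2.55-fold and 3.33-fold, the lowest of all WT-higher regions, with 78 and 74 WT against 12 and 10 slow fragments. The most covered WT-higher peak among the chromosome 19 members, from 3463214 to 3463363, lay in the same segment but was called only in pair 2, with 126 WT against 28 slow fragments and a fold of 2.13.

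The other high-ranking WT-higher regions lay apart from these segments. From 39903638 to 39903816 the WT libraries had 43 and 24 fragments against 1.41 and 1 slow, 7.76-fold and 6.28-fold. From 49001399 to 49001704 they had 51 and 40 against 3 and 2, 5.50-fold and 6.75-fold. From 34899999 to 34900291 the counts were 24 and 18 against 1 and 0.03, 5.44-fold and 9.40-fold. In all 3 the WT fragments were fewer in pair 2, the shallower pair.

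Peaks of both directions were unevenly spread along the chromosome. The first 5 Mb held 49 of 191 slow-higher peaks in pair 1 (25.7%) and 29 of 122 in pair 2 (23.8%), or 9.80 and 5.80 peaks per Mb, and 9 of 39 and 7 of 37 WT-higher peaks, or 1.80 and 1.40 per Mb. From 5 to 20 Mb the density was 3.00 and 1.87 slow-higher and 0.333 and 0.467 WT-higher peaks per Mb. From 30 to 52 Mb it was 3.09 and 2.05 slow-higher and 0.909 and 0.636 WT-higher. The last 0.494 Mb had the highest density in 3 of the 4 lists, on few peaks, with 6 and 3 slow-higher peaks (12.1 and 6.07 per Mb) and 0 and 3 WT-higher peaks (0 and 6.07 per Mb). The stretch from 24363969 to 30020761, which holds the centromere, was the longest without any peak, at 5.66 Mb.

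**Figure D4:**
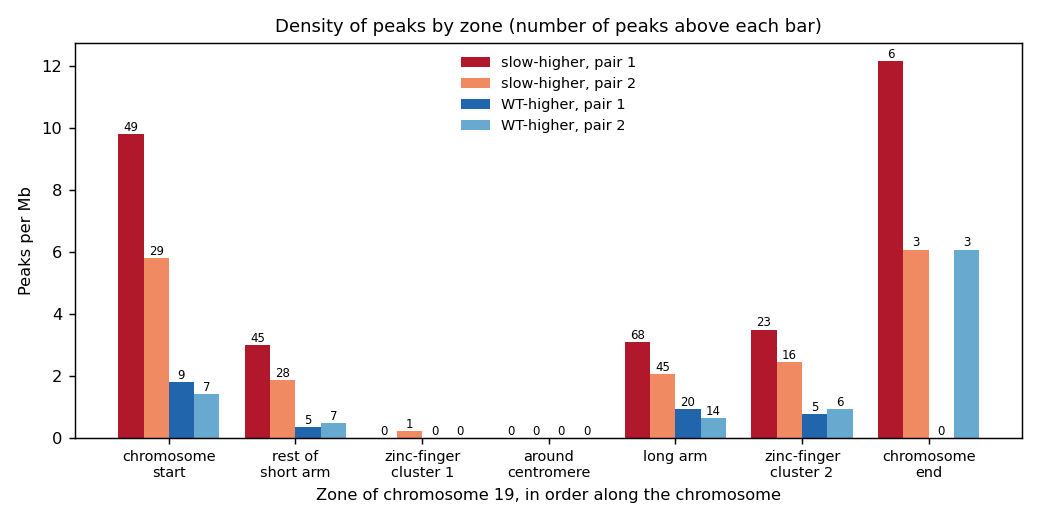
Peaks per Mb in 7 zones in order along chromosome 19, 1 bar per list, with the number of peaks above each bar. The zones are the first 5 Mb, 5 to 20 Mb, the zinc-finger gene cluster at 20 Mb, the 5.5 Mb after it, 30 to 52 Mb, the cluster at 52 Mb, and from its end to the last listed peak. The cluster at 20 Mb holds 1 peak in all lists together, and that at 52 Mb holds 23 and 16 slow-higher and 5 and 6 WT-higher peaks.

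The zinc-finger gene clusters differed in their number of peaks. The cluster at 20 Mb, 7.61% of the length up to the last listed peak, held 1 of the 389 peaks. This slow-higher peak of pair 2, from 24363846 to 24363969, had 4 slow fragments against a WT background of 0.05, 4.88-fold, and was not found in pair 1. The WT-higher lists had 0 peaks there, as did the slow-higher list of pair 1, for which 0 of 191 allows up to 1.57% by the same limit of 3 peaks. The nearest peak below the interval, slow-higher in pair 2 from 19853802 to 19853955, was 5.85-fold with 5 slow fragments.

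By contrast, the cluster at 52 Mb, 11.2% of that length, held 23 of 191 slow-higher peaks in pair 1 (12.04%, interval 7.79% to 17.5%) and 16 of 122 in pair 2 (13.1%, interval 7.69% to 20.4%). It held 5 of 39 WT-higher peaks (12.8%, interval 4.30% to 27.4%) and 6 of 37 (16.2%, interval 6.19% to 32.0%). The density was 3.48 and 2.42 slow-higher peaks per Mb, against 3.50 and 2.19 outside both clusters. The length outside, like the length up to the last listed peak, includes the 5.5 Mb after the cluster at 20 Mb. Every list had 0 peaks in that zone, which is part of the stretch with the centromere. Leaving it out would raise the outside densities, so no order of cluster and outside is drawn from these values. Of the peaks in both clusters together, 82.1% in pair 1 (23 of 28, interval 63.1% to 93.9%) and 73.9% in pair 2 (17 of 23, interval 51.6% to 89.8%) were slow-higher. Outside the clusters the share was 83.2% and 77.2%. The intervals of these shares overlapped widely.

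Slow-higher peaks in the clusters, of which there were 23 and 17, had lower median coverage in both libraries than those outside, a difference that was not tested. They had medians of 13 and 9 slow fragments in pairs 1 and 2, against 23.5 and 14 outside. A WT background of 10 or more fragments was seen at 2 of 23 (8.70%, interval 1.07% to 28.0%) and 2 of 17 (11.8%, interval 1.46% to 36.4%). Outside it was seen at 70 of 168 (41.7%, interval 34.1% to 49.5%) and 26 of 105 (24.8%, interval 16.9% to 34.1%). The intervals, which count neighbouring peaks as independent, did not overlap in pair 1 and did in pair 2. This is no measure of replication. The median fold was 7.91 and 6.78 in the clusters and 5.63 and 6.49 outside. Recurrence in the other pair was 11 of 23 (47.8%) and 11 of 17 (64.7%) in the clusters, and 67 of 168 (39.9%) and 67 of 105 (63.8%) outside.

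The cluster at 52 Mb held 11 of the 77 slow-higher regions. The highest-ranking, from 57742013 to 57742358, had 13 and 14 slow fragments against WT backgrounds of 0.07 and 0.05, 13.6-fold and 14.6-fold. It formed a run with the region from 57740121 to 57740312, where 8 and 5 slow fragments gave 8.74-fold and 5.85-fold. WT coverage was at the caller's minimum in both pairs at these 2 regions. From 58144139 to 58144658 there were 14 and 8 slow against 0.46 and 0.05 WT fragments, 12.6-fold and 8.78-fold. From 56163639 to 56163811 the counts were 29 and 19 against 3.57 and 3.04, 12.1-fold and 8.12-fold.

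Another 7 slow-higher regions lay in the cluster. A pair of them lay from 54691475 to 54691619 (9.21-fold and 7.59-fold) and from 54694130 to 54694343 (6.87-fold and 6.62-fold). Between 55736491 and 55736844 the pairs gave 12.7-fold and 6.78-fold, on 15 and 7 slow fragments. Between 54040693 and 54040881 it was 9.21-fold and 5.09-fold, on 12 and 9, and between 55942010 and 55942404 it was 5.67-fold and 10.7-fold, on 7 and 10. These 3 differed most between pairs within the cluster. From 55608317 to 55609129, a broad region of 813 bp had 90 slow fragments in each pair against 40 and 25 WT, 5.21-fold and 6.98-fold, by far the most covered of the cluster. From 58152202 to 58152548 the folds were 4.34 and 6.31.

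WT-higher regions of the cluster numbered 2. From 57985284 to 57985663 there were 33 and 29 WT fragments against 0.14 and 1 slow, 12.8-fold and 7.48-fold, the second highest rank among WT-higher regions. From 54614377 to 54614562 the counts were 48 and 36 against 3 and 3, 5.19-fold and 4.58-fold. Slow-higher and WT-higher regions therefore both occurred in this cluster.

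Besides the run near 2.2 Mb, 4 others were the richest in peaks among the members. From 450445 to 458478, 4 slow-higher peaks of pair 1 and 7 of pair 2 held 3 reproducible regions, with folds of 4.92 to 12.1 and 3.86 to 13.0. It included a peak from 452226 to 452670 called only in pair 2, with 13 slow fragments and the highest fold (13.0) among the unshared slow-higher peaks of that pair. From 33165689 to 33184148 there were 5 and 4 slow-higher peaks, and from 36018245 to 36044428 there were 4 and 4. From 39881349 to 39903816, 4 and 2 slow-higher peaks stood beside 1 WT-higher peak in each pair. WT-higher peaks reached at most 2 in 1 list in any run, and 80 of the 179 loci of all lists together held a single peak.

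Peaks of opposite direction came within 20 kb of each other in 4 places. In the run from 39881349, the WT-higher region from 39903638 began 8790 bp beyond a slow-higher peak of pair 1, from 39894697 to 39894848, which had 30 slow against 4 WT fragments and was 11.7-fold. That slow-higher peak was not found in pair 2 and had the highest fold of the unshared slow-higher peaks of pair 1. The WT-higher peak from 10754254 to 10754408, seen only in pair 2 (5.72-fold), lay 10522 bp from an unshared slow-higher peak of pair 1 at 10764930 (10.4-fold) and 11119 bp from the slow-higher region at 10765527. The other 2 places rested on peaks found in 1 pair only, at 59085139 and 59094268 in pair 2 and at 58018915 and 58038957 in pair 1. Reproducible regions of both directions were present in 1 of the 4 places, the run from 39881349.

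Peaks found in 1 pair only included strong ones. In pair 1, WT-higher peaks from 34712357 to 34712546 and from 34705950 to 34706153 were 10.3-fold and 10.0-fold, with 26 and 23 WT against 0.14 and 0.04 slow fragments. In pair 2, the peak from 18989508 to 18989658 was 11.9-fold with 33 WT against 0.42 slow fragments. Among slow-higher peaks, those from 4454872 to 4455219 (16 slow fragments, 11.1-fold) and from 19516667 to 19516782 (11 fragments, 11.0-fold) were called in pair 1. In pair 2 the peak from 58281043 to 58281171 was 10.7-fold, with 11 fragments. Each of these lacks a replicate.

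The members nearest to the excluded stretches were of both directions. Below the first stretch the nearest member lay 127262 bp away, slow-higher in pair 1 at 2.66-fold, and above it a WT-higher peak of pair 1 lay 82505 bp away at 6.73-fold. The outermost peaks just inside that stretch were 8.31-fold and 14.8-fold. On either side of the next stretch the nearest members were slow-higher, at 5.73-fold and 4.88-fold with 5 and 4 slow fragments. Beside the third stretch they were a slow-higher peak of pair 1 at 5.73-fold, 474213 bp below, and the WT-higher region at 48642640 described above, 186887 bp above. Beside the fourth they were a WT-higher peak of pair 1 at 3.25-fold, 493961 bp below, and a slow-higher peak of pair 1 at 7.79-fold, 139424 bp above. No run among the members had more than 7 peaks in 1 list.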

How the data were processed

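The series holds m6A-immunoprecipitated libraries (MeRIP-seq) of HEK293 cells, 2 per group. TopHat2 and hg19 are named per the submitters' processing notes, the former without a version. Peaks were called by the authors with MACS 2.1.1.20160309, per the file headers, keeping q-values up to 0.01, on each same-numbered pair in both directions, with replicates not pooled. At most 1 read per position and strand was kept, and the larger library was scaled down. The deposited pileup is a coverage signal, and the deposited fold is a ratio with a pseudocount of 1. The deposited p and q values are on a −log10 scale, in columns whose header names were lost and which were told apart by the caller's column order. Library totals come from the file headers.

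The background was computed from pileup and fold, and the depth ratio was used to undo the scaling. Summit fragments were then whole within 0.05 at all 389 peaks. Slow-higher summits had not been scaled, so this checks the unscaling at WT-higher peaks only. Backgrounds were often not whole. Peaks were assigned to clusters by their middle. A reproducible region joined overlapping same-direction peaks of both pairs with no opposite peak over it. Its fold was that of its highest peak in each pair.

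Named by rule were the 15 slow-higher and 10 WT-higher regions with the highest lower fold, all regions in the zinc-finger clusters, the 5 richest runs, opposite neighbours within 20 kb, and from each list the peaks with the most fragments and the highest unshared folds, of which some are printed. The members and lists were chosen with earlier results of these data known. No test was run, since all values come from the contrast that chose the members. Overlap, region and chain rules were tested on simulated data. Alternatives are given in the closing section. Python 3.11.15, SciPy 1.17.1 and matplotlib 3.10.9 were used.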

Additional observations from a re-analysis of the deposited data

How the results depend on the processing

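Across 11 results and 77 alternatives, 54 values moved by less than 1 SD of the pairs (or, for counts, by less than 1.5 times), and 23 moved by more. With SDs of 2 pairs this is a loose measure. A direction was reversed in 0 of them, but among these results only the slow-higher share has a direction that could reverse. The slow-higher share of 79.9% became 74.9% counted as loci, 87.95% with the 4 stretches kept in and 74.6% over peaks with under 10 background fragments in the other library (chosen after seeing the data). With the stretches kept in, the share of slow-higher peaks that lay in clusters (12.99%) was 7.16%, and recurrence of slow-higher peaks (52.4%) was 71.04%. Slow-higher regions (77) were then 172, and their median fold (6.78) was 11.2. With cluster edges moved in or out by 0.5 Mb, the shares in clusters were 10.3% or 16.7% for slow-higher and 11.8% or 18.6% for WT-higher peaks. With under 10 background fragments, slow-higher peaks had 16.8% in clusters, 46 regions, 37 loci (59 as reported) and a median fold of 8.93, and WT-higher regions a median fold of 7.01 (6.81 as reported). At a −log10 q of at least 5, WT-higher recurrence (36.9%) was 28.04%, WT-higher regions 7 (14 as reported) in 7 loci (13 as reported), and the median folds 7.35 for slow-higher and 7.61 for WT-higher regions. With 50% reciprocal overlap, WT-higher recurrence was 31.6% and the WT-higher median fold 6.97. The cause of these shifts was not tested. Without pair 1 or pair 2, the slow-higher share was 76.7% or 83.0%, and recurrence and regions have no value. The smallest slow-higher calls had 3 fragments, and the effect of depth on them was not tested.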
